A study of Rattus norvegicus with 10 samples.

Results

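Molecular chaperones and protein disulfide isomerases are the genes described here, in the livers of rats on an iron-deficient or a control diet. They were chosen by name: every gene whose symbol in the platform annotation starts with Dnaj, Hspa, Hspb, Hspd1, Hspe1, Hsph1, Hsp90 or Pdia, or is Cct2 to Cct8 or Tcp1, with a probe set paired with that gene alone. This gave 77 genes of 14217 with such a probe set. The probe set with the highest mean over all arrays stood for a gene. By a list of known locations, 50 of the genes were placed in the cytosol (nuclear members and those on the cytosolic face of vesicles included), 8 in mitochondria and 16 in the endoplasmic reticulum (ER). The other 3, Dnajc4, Dnajc18 and Dnajc22, were not placed. Another 6 probe sets with matching symbols are paired with several genes and were left out. Hspa8 and Hsp90aa1, the main constitutive Hsp70 and the inducible Hsp90 of the cytosol, are not analysed here.

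Hsp70 proteins bind and release unfolded stretches of a protein in cycles of ATP hydrolysis, which J proteins (the Dnaj genes) start and exchange factors such as the Hsp110 proteins reset. Hsp90 acts later, on nearly folded clients such as kinases and steroid receptors, small heat shock proteins hold unfolding proteins in solution, and the ring-shaped chaperonin TRiC encloses actin, tubulin and other newly made proteins. In mitochondria, Hsp70 pulls in and folds imported proteins with the Hsp60 and Hsp10 chaperonin, and with the J protein Hscb it serves the transfer of iron-sulfur clusters. In the ER of hepatocytes, which secrete most plasma proteins, Hspa5 (BiP), Hsp90b1 (Grp94) and the disulfide isomerases fold the secreted proteins and form their disulfide bonds.

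Liver RNA from 10 male Sprague-Dawley rats, aged 5 weeks, was measured on 1 Affymetrix rat genome array per rat. All rats first received a control diet with 48 ppm iron. The iron-deficient group (n = 5) was then given free access to the same diet without the added ferric citrate, about 3 ppm iron. The pair-fed group (n = 5) was given the control diet in matched amounts. By the methods of the study, food was offered in set daytime hours, from before the diets until the day before the livers were taken. The diets lasted 3 days and the liver was taken 1.5 h after feeding. In the labels of the control samples the source field names the iron-deficient diet while title and treatment name the control diet, and they were grouped by title.

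The values are log2 RMA signals (robust multiarray average, a summary per probe set of the log2 brightness of its probes after normalisation across arrays). Their median per array lay between 6.19 and 6.22. For a log2 fold change, the mean over the pair-fed rats was subtracted from that over the iron-deficient rats, with its standard error (SE) from limma. A gene that passed rank products at a false discovery rate (FDR) under 0.05 over all 31042 probe sets is called up-regulated or down-regulated. Iron-deficient replicate 1 stood apart: its mean correlation with the other arrays was 0.9915, against 0.9935 to 0.9941 for the rest. It also had the highest 3' minus 5' difference of the GAPDH (0.36) and beta-actin (1.74) control probe sets, a sign of RNA quality. Between the groups these differences did not pass (exact permutation test, 2-sided, p = 0.341 and 0.230). Hepatocyte markers were at 14.70 to 14.73 (mean log2 signal of 6 genes) in the iron-deficient and 14.67 to 14.73 in the pair-fed group, in accord with the tissue on the label. Of the erythroid markers, 6 of 7 were down-regulated, with mean levels of 7.68 to 8.50 against 8.14 to 9.24 and the dimmest, Hemgn, at a mean of 5.49. Of the markers of stellate cells and fibroblasts 1 of 8 was up-regulated, with mean levels of 7.74 to 8.39 against 7.65 to 7.85 and the highest in iron-deficient replicate 1. None of the markers of Kupffer cells (6), endothelium (5), bile ducts (4) and T and NK cells (8) passed. In whole liver, fewer cells of a type and less RNA per cell cannot be told apart.

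Promoters of some of these genes carry the DNA elements of 2 stress responses, and some are shown because the genes are compared below by these responses. Heat shock factor binds heat shock elements, inverted repeats of GAA, and the ATF6 branch of the unfolded protein response acts on the ER stress response element. RefSeq promoter windows of the rat assembly GRCr8, from 250 bases before to 50 bases after the gene start, were at hand for 64 of the 77 genes. A heat shock element of 3 units (GAANNTTC followed after 2 more bases by GAA, or TTCNNGAA followed after 2 more bases by TTC, which are each other's reverse complement) lay in the windows of 5 genes, Hsph1, Dnaja1, Cct4, Hspd1 and Hspe1. This was 7.81% of the genes with a window, against 0.794% of 27457 genes. One of 2 units (GAANNTTC or TTCNNGAA, each its own reverse complement, and part of every match of 3 units) lay in 17, 26.6% against 16.7%. The ER stress response element (CCAAT, 9 bases and CCACG, on either strand) lay in 3, Hspa5, Hsp90b1 and Dnajc3, 4.69% against 0.0765%. Not every gene discussed below with these responses had a match. The windows of Hspa1a, Hsp90ab1, Hspa4 and Dnaja4 held no heat shock element of either length. Those of Pdia4 and Dnajb9 held no ER stress response element. In the stretches below, 5' to 3' on the strand of the gene, capitals mark the element. The matches of Dnaja1 and Cct4 end beyond the gene start and are not shown. Of the 2 matches of 2 units in the window of Dnajb1, 1 ends beyond the gene start and is not shown.
Hsph1, GRCr8 chr12:10427320-10427356, plus strand, 3 units: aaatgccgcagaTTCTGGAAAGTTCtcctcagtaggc
Hspe1, GRCr8 chr9:64084250-64084291, plus strand, 3 units, 2 overlapping matches: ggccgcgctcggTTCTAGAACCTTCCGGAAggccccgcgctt
Hspb1, GRCr8 chr12:26432391-26432442, minus strand, 2 units, 2 matches: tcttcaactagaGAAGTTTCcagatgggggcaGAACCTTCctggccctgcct
Dnajb1, GRCr8 chr19:41431142-41431164, minus strand, 2 units: tcgggaggggcgGAAGGTTCtgg
Hspa5, GRCr8 chr3:38452961-38453003, plus strand, ER stress response element: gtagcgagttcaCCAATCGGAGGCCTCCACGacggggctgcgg
Dnajc3, GRCr8 chr15:102432522-102432564, plus strand, ER stress response element: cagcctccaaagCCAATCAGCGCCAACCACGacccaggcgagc
Hspd1 and Hspe1 lie head to head on chromosome 9, on opposite strands, and the stretch printed for Hspe1 is the same one that holds the matches of Hspd1. A match of letters is a description of the window and was not tested as a binding site.

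Differences of the chaperone and disulfide isomerase genes between the groups were small, but not smaller than those of other genes. Their median absolute log2 fold change was 0.093, against 0.069 over the brightest probe sets of all genes. None of the 77 was up-regulated, against 0.303% of all probe sets. The small heat shock protein gene Hspb1 was the single one down-regulated, 1.30% of the genes against 0.573% of all probe sets, a share that rests on 1 gene. The other 76 did not pass. limma called none at an adjusted p under 0.05 (lowest 0.630), as it called 0% of all probe sets. At an unadjusted p under 0.05 in limma, 4 were lower in the iron-deficient group (5.19%, against 3.77% of all probe sets) and 1 was higher (1.30%, against 3.21%). By the brightest probe set of each of all 14217 genes, chosen as for the members, 703 were lower and 413 higher. The share of lower members was thus near that of all genes. Rank products called 46 of these 14217 up-regulated and 108 down-regulated. Log2 fold changes ran from -0.45 to 0.29.

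Most of the small differences were negative. The mean was lower in the iron-deficient group for 55 of the 77 genes and higher for 22, so that 71.4% were lower, against 52.5% of all genes by their brightest probe set and 48.6% of all probe sets. The median log2 fold change was -0.058, against -0.0059 over the brightest probe sets of all genes. Of the cytosolic members 38 of 50 were lower (median -0.074), of the mitochondrial members 6 of 8 (median -0.032) and of the ER members 9 of 16 (median -0.017). These genes were measured in the same rats, and the groups overlapped by rat. The median deviation of the members from each gene's mean over all arrays was 0.036 and 0.044 in iron-deficient replicates 1 and 4. In pair-fed replicates 1, 3 and 4 it was 0.030, -0.006 and -0.027. Iron-deficient replicates 2, 3 and 5 were lowest (-0.075, -0.099 and -0.033) and pair-fed replicates 2 and 5 highest (0.087 and 0.063). With any 1 array left out, between 51 and 58 members were lower. The ER median then ran from -0.056 to 0.036, so that its sign was not settled. The mitochondrial median was -0.081 without iron-deficient replicate 1.

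**Figure D1:**
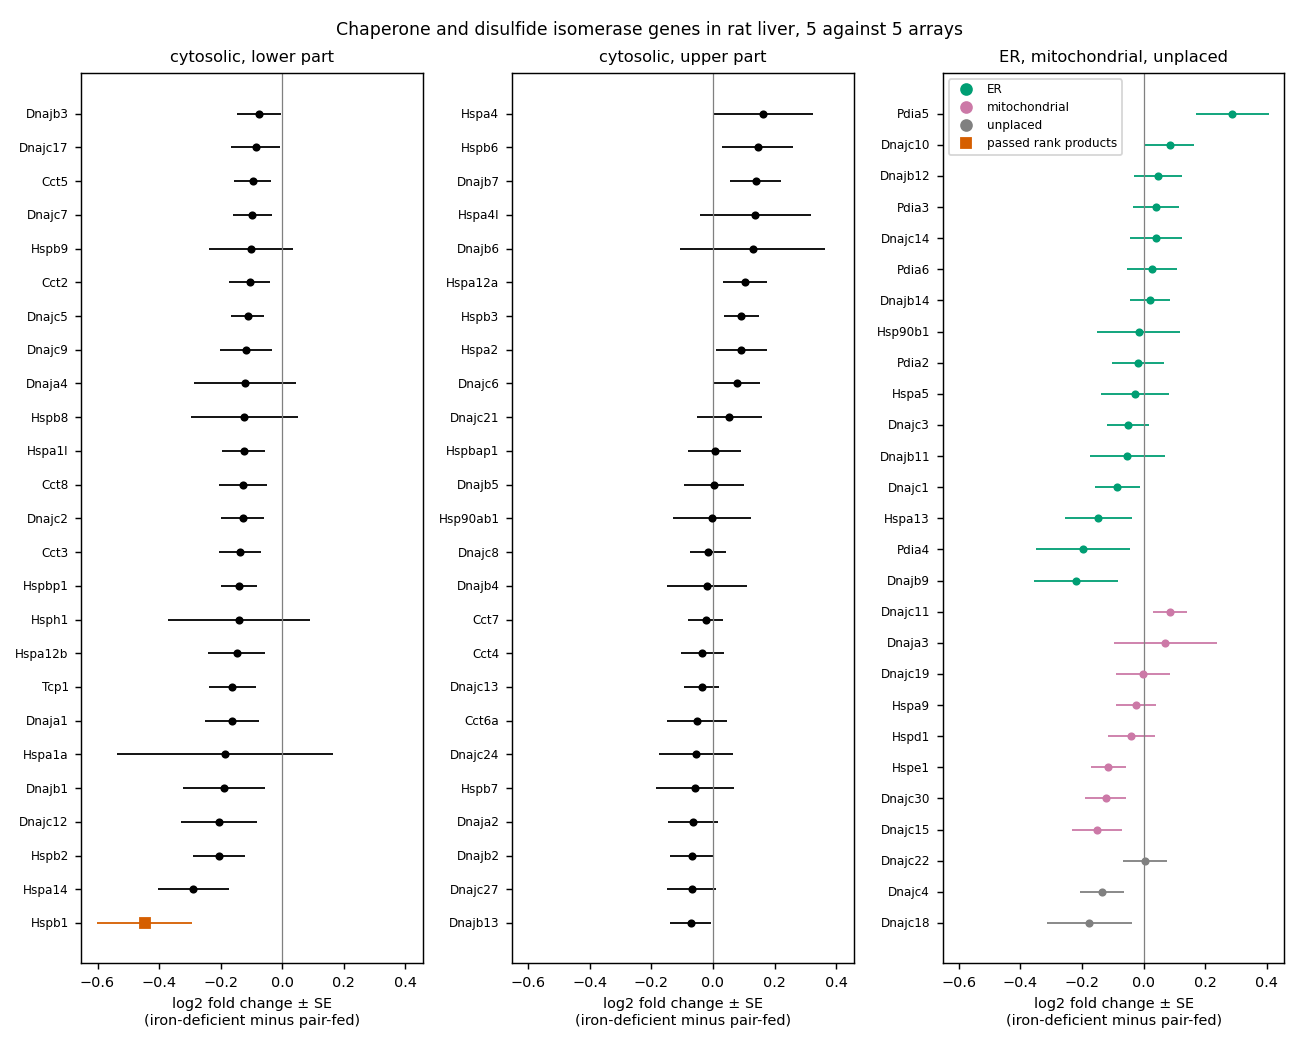
Log2 fold change of each of the 77 genes (iron-deficient minus pair-fed, 5 arrays each) with its SE from limma, the 50 cytosolic genes in the left and middle panels and the ER, mitochondrial and unplaced genes at the right. Hspb1 (-0.45, square) is the gene that passed rank products, and Pdia5 (0.29) has the highest positive difference.

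Hspb1 encodes Hsp27, which keeps unfolding proteins in solution and stabilises actin filaments. Its log2 signal was 5.83, 5.40, 5.49, 6.09 and 5.79 in iron-deficient replicates 1 to 5 and 5.82, 6.32, 5.88, 6.32 and 6.51 in pair-fed replicates 1 to 5. All 5 iron-deficient rats lay below the pair-fed median, but pair-fed replicates 1 and 3 fell within the iron-deficient range. The log2 fold change was -0.45 (SE 0.16), or 0.734 times the pair-fed level, with an FDR of 0.0416 by rank products and an adjusted p of 0.630 in limma. The call was lost without iron-deficient replicate 2, 3 or 5 or pair-fed replicate 2, 4 or 5, with FDRs of 0.0569 to 0.233 and log2 fold changes of -0.46 to -0.36. It was also lost with the replicate number as a block (FDR 0.0618), with rank sums (FDR 0.340) and without the dimmest probe sets (FDR 0.0663). Of the erythroid markers 6 of 7 were down-regulated in the same contrast, and their part in this difference was not tested.

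The other small heat shock proteins did not follow one direction. Hspb2, known from muscle, was low in both groups, at 3.88 to 4.16 in the iron-deficient and 4.14 to 4.50 in the pair-fed group. Its log2 fold change of -0.21 (SE 0.08, adjusted p = 0.673 in limma) did not pass, and the groups overlapped at their edges. Of the 7 genes 5 had lower and 2 higher means. Hspb6, also known from muscle, had a positive difference of 0.15 (SE 0.12), with pair-fed replicate 3 at 6.39 against 6.94 to 7.08 in all other rats.

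In the cytosolic Hsp70 system, 2 genes had groups that did not overlap, both lower in the iron-deficient group. These are 2.60% of the 77, against 0.799% of all probe sets in this direction, and none lay wholly higher, against 0.493%. By the brightest probe set of each of all 14217 genes, 168 lay wholly lower and 63 wholly higher. The share lower is larger there than over all probe sets, and that of the members rests on 2 genes. The first, Hspbp1, encodes an exchange factor that strips nucleotide from Hsp70. Its log2 signal was 8.20, 8.19, 8.18, 8.19 and 8.24 in the iron-deficient rats and 8.37, 8.36, 8.24, 8.26 and 8.46 in the pair-fed rats. The 5 iron-deficient values lay close together, just under the lowest pair-fed one. The log2 fold change of -0.14 (SE 0.06) did not pass either test (adjusted p = 0.682 in limma).

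The second, Dnajc5, encodes cysteine string protein, a J protein of secretory vesicles. It read 9.40, 9.35, 9.43, 9.34 and 9.36 in the iron-deficient and 9.55, 9.49, 9.47, 9.48 and 9.44 in the pair-fed group. The gap between the groups was narrow, and the log2 fold change of -0.11 (SE 0.05, adjusted p = 0.721 in limma) did not pass. The 2 other probe sets of Dnajc5 gave 0.05 (SE 0.09) and -0.03 (SE 0.10) with overlapping groups, so the separation held for 1 of its 3 probe sets.

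Hspa14, an Hsp70 that works at the ribosome, had the second most negative difference. It read 8.50, 8.77, 8.22, 8.60 and 8.44 in the iron-deficient and 8.72, 8.85, 8.95, 8.48 and 8.96 in the pair-fed rats. All 5 iron-deficient values were below the pair-fed median, while pair-fed replicates 1 and 4 lay within the iron-deficient range. The log2 fold change was -0.29 (SE 0.11, adjusted p = 0.673 in limma), with no call. Dnajc12, a J protein of phenylalanine hydroxylase, read 9.82 to 10.26 against 9.89 to 10.49, a difference of -0.20 (SE 0.12). The class A J proteins Dnaja1, Dnaja2 and Dnaja4, helpers of Hsp70 in refolding, had differences of -0.16, -0.07 and -0.12, and none passed.

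The TRiC chaperonin is built of 8 subunits, and all 8 were measured and lower in the iron-deficient group, with none passing. Their log2 fold changes were -0.16 for Tcp1, -0.14 for Cct3, -0.13 for Cct8, -0.11 for Cct2, -0.10 for Cct5, -0.05 for Cct6a, -0.03 for Cct4 and -0.02 for Cct7, with SEs of 0.06 to 0.10 and a median of -0.10. The last 3 are smaller than their SEs. The other probe sets of Cct5, Cct6a and Cct8 had the same sign, at -0.08, -0.12 and -0.08.

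Tcp1, with the largest difference of the complex, read 12.07, 11.91, 11.83, 12.21 and 11.93 in the iron-deficient and 12.16, 12.17, 12.13, 12.05 and 12.24 in the pair-fed rats. Iron-deficient replicate 4 was above the pair-fed median, so the groups overlapped (adjusted p = 0.722 in limma). Cct3 read 10.27 to 10.51 against 10.43 to 10.61, and Cct5 read 11.31 to 11.41 against 11.34 to 11.56. For these 2 all 5 iron-deficient rats were below the pair-fed median.

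The rats of a group differed among themselves in these subunits. The median deviation of the 8 from each gene's own mean over 10 arrays was -0.14 and -0.17 log2 units in iron-deficient replicates 2 and 3, but 0.07 in replicate 4, and it was 0.10 and 0.15 in pair-fed replicates 2 and 5, but -0.04 in replicate 4. Iron-deficient replicates 2 and 3 were thus the lowest of the 10 rats, and replicate 4 lay above 3 of the pair-fed rats. Iron-deficient replicate 3 had the lowest value of 5 of the 8 subunits and pair-fed replicate 5 the highest of 4.

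**Figure D2:**
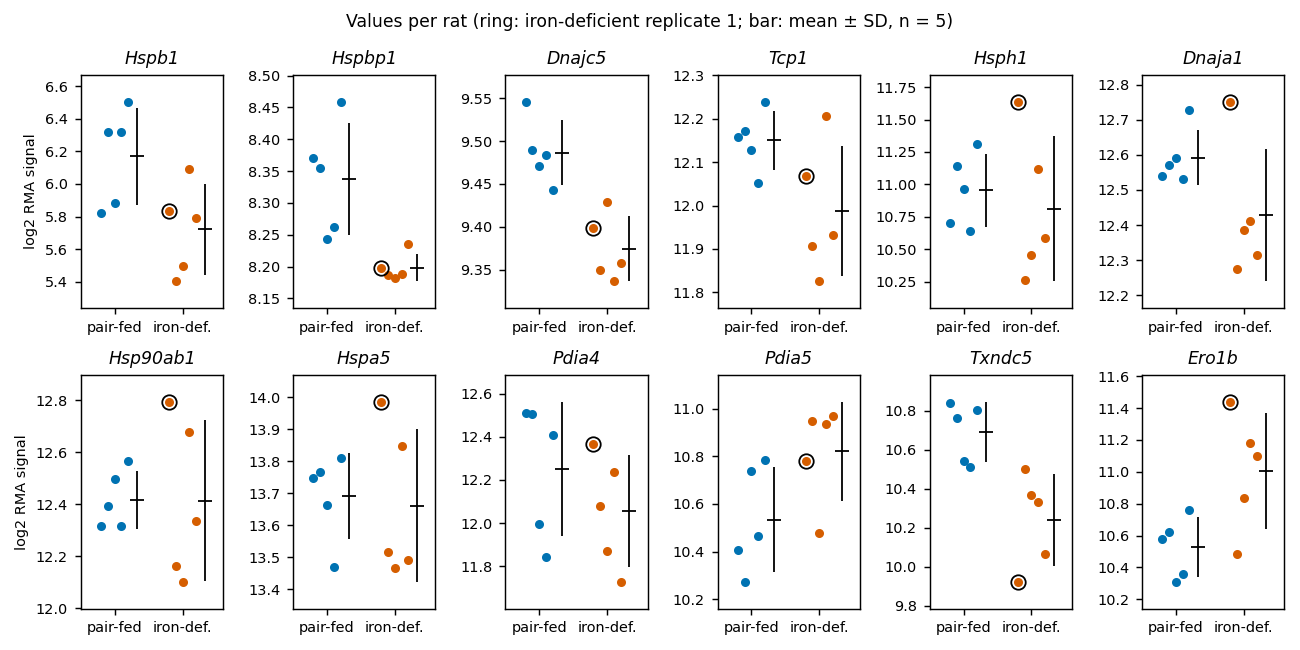
Log2 RMA signal of 12 genes in each rat, pair-fed in blue and iron-deficient in orange, with the mean and SD of each group (n = 5) and a ring on iron-deficient replicate 1. Hspbp1, Dnajc5 and Txndc5 have groups that do not overlap, while Hsph1, Dnaja1, Hsp90ab1 and Hspa5 have their highest value in iron-deficient replicate 1.

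For several genes of the heat shock response, rats of the same group differed more than the group means did. These genes were singled out after their values had been seen. Hsph1, an Hsp110 exchange factor whose promoter stretch is printed above, read 11.64, 10.26, 10.45, 11.12 and 10.58 in the iron-deficient and 10.70, 11.14, 10.96, 10.64 and 11.31 in the pair-fed rats. Iron-deficient replicate 1 was the highest of all 10 and replicate 2 the lowest. Its difference between groups, -0.14, was smaller than its SE of 0.23. A second probe set of Hsph1 was also highest in iron-deficient replicate 1, at 10.02 against 8.49 to 9.52 in the others.

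Hspa1a, the inducible Hsp70 (a near-identical copy, Hspa1b, may share its probes), read 8.67, 7.03, 7.52, 8.03 and 7.00 in the iron-deficient and 7.16, 8.22, 7.55, 7.45 and 8.79 in the pair-fed rats. Pair-fed replicate 5 and iron-deficient replicate 1 stood highest, and the difference of -0.19 had an SE of 0.35. Dnajb1, the J protein induced with it, read 10.71, 10.13, 10.22, 10.51 and 10.11 against 10.22, 10.61, 10.55, 10.42 and 10.82. The same 2 rats were again highest, and the difference was -0.19 (SE 0.13).

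The same iron-deficient rat led for several other members. Hsp90ab1, the constitutive Hsp90, was at 12.79 in iron-deficient replicate 1 and at 12.10 to 12.68 in the other 9 rats, with a difference between groups of -0.003 (SE 0.13). A second probe set of Hsp90ab1 was highest in pair-fed replicate 5 (10.95), with iron-deficient replicate 1 at 10.68 and a difference of -0.10 (SE 0.15). Dnaja1 was at 12.75 in iron-deficient replicate 1, against 12.28 to 12.41 in the 4 other iron-deficient rats and 12.53 to 12.73 in the pair-fed rats. Without that rat the Dnaja1 groups did not overlap, and the difference went from -0.16 to -0.24, with no call. By a second probe set of Dnaja1 they still overlapped, with iron-deficient replicate 4 at 11.68 and pair-fed replicate 1 at 11.63. Hspa4, another Hsp110, was at 9.00 in iron-deficient replicate 1 and at 7.99 to 8.36 elsewhere, and its mean was higher in the iron-deficient group (0.16, SE 0.16).

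Counted over all 77 genes, iron-deficient replicate 1 held the highest value of 21 (27.3%, against 16.9% of all probe sets) and the lowest of 16 (20.8%, against 18.0%). Pair-fed replicates 2 and 5 held the highest value of 14 and 13 (18.2% and 16.9%, against 8.48% and 8.82%), and 12 of the 13 of replicate 5 were cytosolic. Iron-deficient replicate 3 held the highest value of none (against 11.2% of all probe sets) and the lowest of 20 (26.0%, against 9.64%). Neither group stood as a block at 1 end. The RNA quality of iron-deficient replicate 1 is given above, and its part in these values was not tested.

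**Figure D3:**
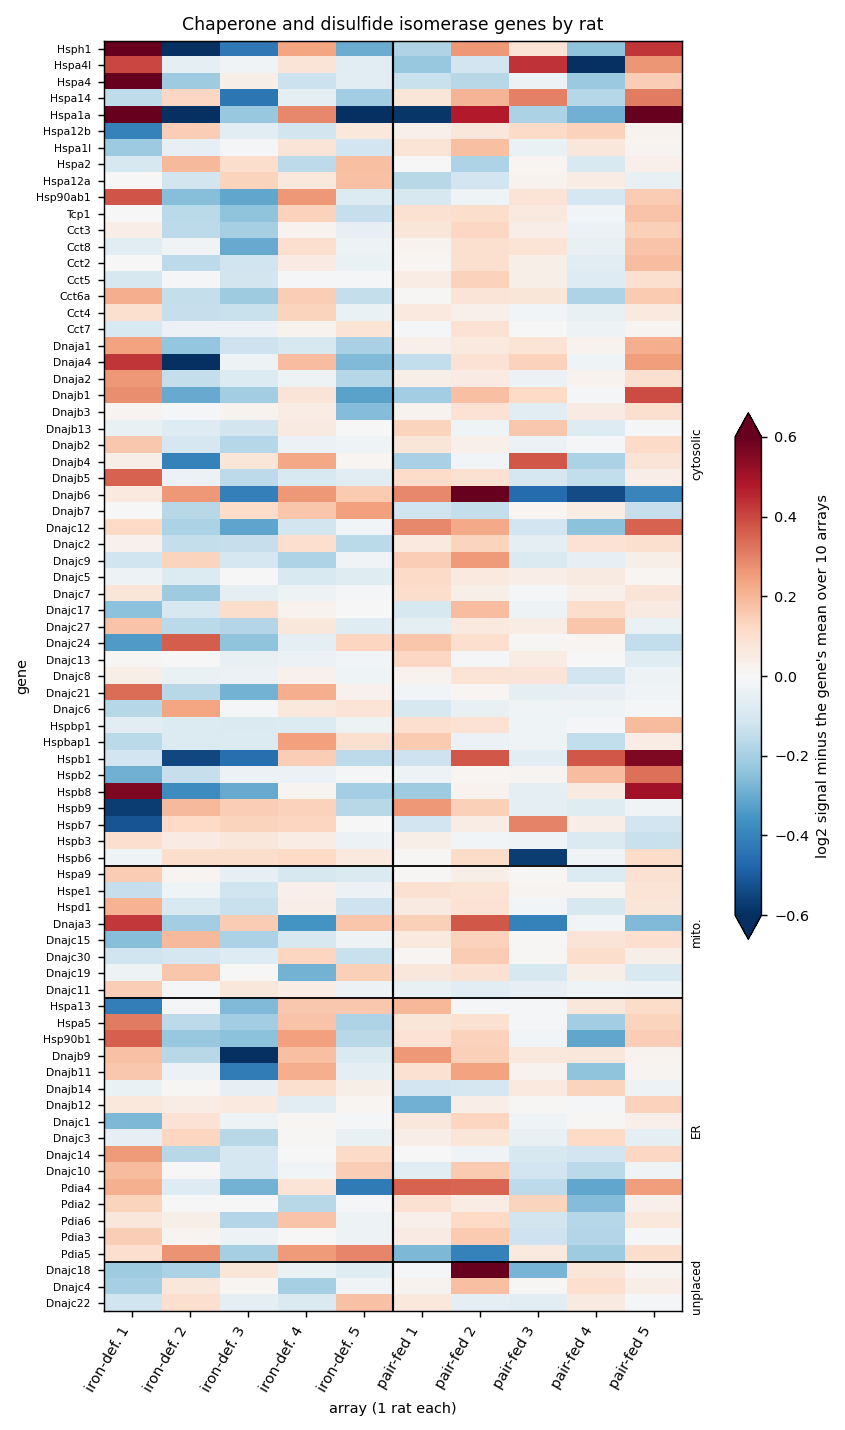
Log2 signal of each of the 77 genes in each rat minus the gene's mean over the 10 arrays, with red above and blue below and colours that end at 0.6; horizontal lines part the cytosolic, mitochondrial, ER and unplaced genes, and the vertical line parts the groups. Iron-deficient replicate 1 is red for many heat shock genes (Hsph1, Hspa4, Hspa1a, Hspb8), iron-deficient replicates 2 and 3 are mostly blue, and pair-fed replicates 2 and 5 are mostly red.

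**Figure D4:**
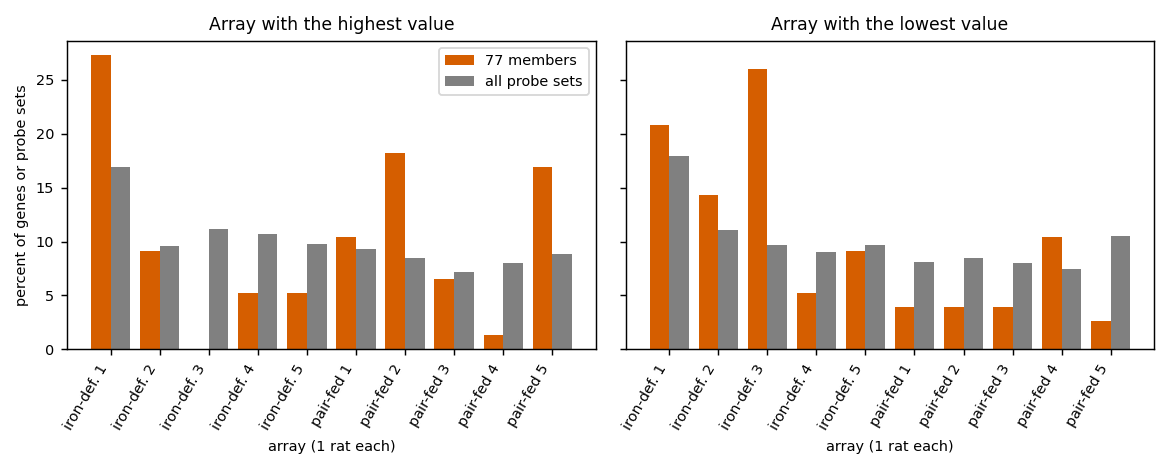
Percent of the 77 genes (orange) and of all 31042 probe sets (grey) that have their highest (left) or lowest (right) value on each array. Iron-deficient replicate 1 has the highest value of 27.3% of the genes, and iron-deficient replicate 3 has the lowest of 26.0% and the highest of none.

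None of the 8 mitochondrial members passed. Hspd1 and Hspe1 encode Hsp60 and its lid Hsp10, the chaperonin of the matrix, from the shared promoter printed above. Hspd1 read 13.24, 12.95, 12.90, 13.07 and 12.91 in the iron-deficient and 13.09, 13.12, 13.02, 12.94 and 13.11 in the pair-fed rats, a difference of -0.04 (SE 0.08). Hspe1 read 12.78, 12.89, 12.79, 12.95 and 12.88 against 13.01, 13.00, 12.93, 12.93 and 13.00, a difference of -0.11 (SE 0.06, adjusted p = 0.734 in limma). For Hspe1 the groups overlapped through iron-deficient replicate 4 alone. In iron-deficient replicate 1 the pair parted: it had the highest Hspd1 value of the 10 rats and the lowest Hspe1 value.

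Dnajc15, a J protein of the import motor, had the largest mitochondrial difference, -0.15 (SE 0.08). It read 9.29, 9.73, 9.35, 9.44 and 9.51 against 9.60, 9.68, 9.55, 9.62 and 9.64, and iron-deficient replicate 2 was the highest of all. Dnajc30 read 8.61 to 8.87 against 8.75 to 8.90, a difference of -0.12 (SE 0.07), and its second, dim probe set gave 0.07. Hspa9, the Hsp70 of the matrix that also takes part in iron-sulfur cluster transfer, read 11.71 to 11.96 against 11.73 to 11.90, a difference of -0.02 (SE 0.07).

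None of the 16 ER members passed. Hspa5, the Hsp70 of the ER and a standard readout of the unfolded protein response, read 13.99, 13.52, 13.47, 13.85 and 13.49 in the iron-deficient and 13.75, 13.77, 13.66, 13.47 and 13.81 in the pair-fed rats. The difference was -0.03 (SE 0.11). Hsp90b1 read 13.32, 12.73, 12.71, 13.20 and 12.79 against 13.05, 13.09, 12.94, 12.65 and 13.10, a difference of -0.02 (SE 0.13). For both genes, iron-deficient replicates 1 and 4 were the highest of the 10 rats while the other 3 iron-deficient rats lay below the pair-fed median.

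Dnajc3, a J protein of the ER and the third gene with an ER stress response element, did not share that order. It was highest in iron-deficient replicate 2 (11.54) and lowest in replicate 3 (11.25), with 11.35 to 11.53 in the pair-fed rats and a difference of -0.05 (SE 0.07). Dnajb9 (ERdj4), a J protein that binds misfolded proteins for degradation, had the most negative ER difference, -0.22 (SE 0.14). It read 11.74, 11.40, 10.91, 11.75 and 11.48 against 11.82, 11.71, 11.63, 11.63 and 11.58, so that iron-deficient replicate 3 was far the lowest. Without that rat the difference was -0.08.

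The 5 disulfide isomerases went both ways. Pdia5 had the highest positive difference of all 77 genes. It read 10.78, 10.95, 10.48, 10.94 and 10.97 in the iron-deficient and 10.41, 10.27, 10.74, 10.47 and 10.78 in the pair-fed rats. All 5 iron-deficient values were above the pair-fed median, while replicates 1 and 3 lay within the pair-fed range. The log2 fold change was 0.29 (SE 0.12, FDR 0.329 by rank products, adjusted p = 0.673 in limma), and between 0.22 and 0.37 with any 1 array left out.

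Pdia4 (ERp72) had the opposite sign, with 12.36, 12.08, 11.87, 12.24 and 11.73 in the iron-deficient and 12.51, 12.50, 12.00, 11.84 and 12.41 in the pair-fed rats. The pair-fed rats split into 3 high and 2 low values, and all 5 iron-deficient rats were below the pair-fed median. The difference was -0.20 (SE 0.15). Pdia3 (ERp57), the partner of calnexin and calreticulin in glycoprotein folding, was 12.34 to 12.52 against 12.20 to 12.53, and Pdia6 was 11.92 to 12.26 against 11.92 to 12.21. Their differences of 0.04 (SE 0.07) and 0.03 (SE 0.08) were within their SEs, and the second, dim probe set of Pdia3 gave -0.02. Pdia2, the isomerase of the pancreas, was dim in all rats (3.71 to 4.10), with a difference of -0.02 (SE 0.08).

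Of the 3 unplaced J proteins, Dnajc18 had a difference of -0.18 (SE 0.14) that was -0.04 without pair-fed replicate 2, at 7.55 against 6.62 to 6.97 in all others. Dnajc4 read 7.82 to 8.09 against 8.03 to 8.20, a difference of -0.14 (SE 0.07). Dnajc22 had a difference of 0.004 (SE 0.07), which changed sign when the arrays were centred on their medians.

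Partner genes from a list of co-chaperones, oxidases and stress response genes were read from the same fit. Of 75 listed, 72 were measured, 1 was up-regulated and 1 down-regulated, both in the ER, against 0.303% and 0.573% of all probe sets, so that each share rests on 1 gene. Ero1b, the oxidase that passes oxidising power to disulfide isomerases, read 11.44, 10.48, 10.83, 11.18 and 11.10 in the iron-deficient and 10.58, 10.63, 10.31, 10.36 and 10.76 in the pair-fed rats. Of the iron-deficient rats 4 lay above every pair-fed rat and replicate 2 lay among them. The log2 fold change was 0.48 (SE 0.16, FDR 0.0401 by rank products, adjusted p = 0.616 in limma). It passed in 3 of 10 fits with 1 array left out (without iron-deficient replicate 2 or pair-fed replicate 2 or 5; 0.37 to 0.61 over the 10), and the mean over its probe sets gave 0.20, with no call. The call was also lost with the rank sum, without the dimmest probe sets and with the replicate block.

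Txndc5 (ERp46), a disulfide isomerase whose symbol the rule does not take in, read 9.92, 10.50, 10.37, 10.33 and 10.07 in the iron-deficient and 10.84, 10.76, 10.54, 10.51 and 10.81 in the pair-fed rats. The groups did not overlap. The log2 fold change was -0.45 (SE 0.11, FDR 0.0328 by rank products, adjusted p = 0.601 in limma), and it passed in 4 of the 10 fits with 1 array left out (without iron-deficient replicate 2, 3 or 4 or pair-fed replicate 4; -0.52 to -0.37 over the 10). This call, too, was lost with the rank sum, without the dimmest probe sets and with the replicate block.

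The remaining partners did not pass. Of the 28 cytosolic partners and heat shock factors 23 were lower (median -0.056), the most negative being the Hsp90 co-chaperones Sugt1 (-0.24, SE 0.08) and Chordc1 (-0.21, SE 0.10). Sugt1 read 9.35, 9.60, 9.54, 9.75 and 9.56 against 9.73, 9.87, 9.80, 9.73 and 9.90, so that iron-deficient replicate 4 alone reached into the pair-fed range (adjusted p = 0.616 in limma). Of the 11 mitochondrial partners 7 were lower (median -0.047). They include the matrix protease Clpp (-0.18, SE 0.08) and Hscb, the J protein of iron-sulfur cluster transfer, which read 7.75 to 7.87 against 7.77 to 8.04 (-0.11, SE 0.06).

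Of the 21 ER partners 10 were lower (median 0.012), and of 12 genes of the unfolded protein response 4 (median 0.064). The largest differences of the last group belonged to Ppp1r15a (0.25, SE 0.10) and Ppp1r15b (0.20, SE 0.14), which guide the phosphatase that reverses eIF2alpha phosphorylation. Ppp1r15a read 7.40, 7.72, 7.61, 7.76 and 7.80 in the iron-deficient and 7.27, 7.17, 7.57, 7.50 and 7.53 in the pair-fed rats. Iron-deficient replicate 1 alone lay within the pair-fed range (adjusted p = 0.673 in limma).

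Further probe sets of the 77 genes bear on these values. In all, 115 probe sets matched the rule, 29 genes had several, and none of the probe sets not chosen passed. For 13 of the 29 genes (Dnajb5, Dnajb12, Dnajb14, Dnajc1, Dnajc5, Dnajc6, Dnajc7, Dnajc11, Dnajc24, Dnajc30, Hspa12b, Hspb7 and Pdia3) the probe sets differed in sign.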

How the data were processed

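Liver RNA of each rat was hybridised to 1 array. The deposited values are log2 signals per probe set, which the authors computed with RMA in R and Bioconductor. RMA scales all arrays to 1 distribution, so a change shared by most genes would not be seen. All columns were used (0 left out), 57 control probe sets were not, and 31042 were tested. The platform annotation pairs 20826 with 1 gene, 436 with several and 9780 with none. Samples were grouped by title, and the replicates are separate rats.

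Rank products over the 25 pairs of arrays, with 100 permutations of the values within each array, were computed with numpy 2.4.6 in Python 3.11.15, after the methods of the study. SEs and adjusted p-values (Benjamini-Hochberg over all probe sets) came from limma 3.58.1 in R 4.3.3, with the diet as its term. limma scales the difference of a gene by its spread within the groups. Rank products average the ranks of the differences over the pairs of arrays, without that scaling. Both were run on simulated data with independent noise and added changes larger than any difference of the members. That check therefore does not cover differences of the size reported here. RNA quality was compared by exact permutation tests with scipy 1.17.1. Figures used matplotlib 3.10.9.

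The members, the partner genes, the compartments and the markers were chosen with earlier results of these data known. The genes to be named are those that passed or whose groups did not overlap, the 3 with the largest difference and the 2 with the highest mean per compartment, all TRiC subunits and disulfide isomerases, and per partner class the 2 with the largest difference. Others were named after their values were seen. Alternatives were limma and the rank sum in place of rank products, leaving out the dimmest 40% of probe sets, averaging all probe sets of a gene, centring on array medians, a replicate block, leaving out each array, and 2 more draws of permutations. The groups share replicate numbers, but same-numbered arrays did not deviate together (correlations -0.04 to 0.09), so the rats were not taken as pairs. Promoter sequences are RefSeq windows of GRCr8, absent for 13 members in the table used. 5 arrays per group limit the precision.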

Additional observations from a re-analysis of the deposited data

Results flagged for a closer look

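In 6 of the 100 groups of values examined, 1 of the 5 arrays of a group lay far from the other 4. Far means a gap of more than 0.71 of the range. Chance gives about 1 in 20 for independent groups chosen without sight of their values. Some of the genes, Hspa4 among them, were singled out after their values had been seen, and all values came from the same arrays. The count of 6 can therefore not be set against that rate. Iron-deficient replicate 1 was high for Dnaja1 (12.75, others 12.28 to 12.41), Pdia3 (12.52, others 12.34 to 12.39) and Hspa4 (9.00, others 8.00 to 8.24). It was also high for the 3' minus 5' difference of beta-actin (1.74, others 1.16 to 1.32), whose part in the 3 gene values was not tested. Iron-deficient replicate 4 was high for Dnajc30 (8.87, others 8.61 to 8.67). Pair-fed replicate 4 was low for Pdia2 (3.71, others 4.00 to 4.10), a dim probe set.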

How the results depend on the processing

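The single down-regulated member, Hspb1, was lost (0 members) with limma, with the rank sum, without the dimmest probe sets, and with the replicate block in either test, where its FDR was 0.0618. With 1 array left out the count was 0 to 1. No member was up-regulated under any setting. Over all probe sets 94 were up-regulated and 178 down-regulated, against 4 and 30 with the rank sum, 0 and 0 with limma (lowest adjusted p 0.397), 61 and 113 without the dimmest probe sets and 82 and 148 with the replicate block. With 1 array left out they were 47 to 95 and 91 to 188. The 3 draws of permutations gave 94, 96 and 87 up-regulated and 178, 188 and 174 down-regulated, with Hspb1 at FDRs of 0.0416, 0.0404 and 0.0436. The last of these draws was run first. The main draw, listed first, replaced it after its counts had been seen, and the other was also chosen after seeing the data. Members with groups that do not overlap numbered 2, and 2 to 5 with 1 array left out: 4 without iron-deficient replicate 1 or 4 and 5 without replicate 5. Without replicate 5, Hspb3 and Dnajc11 lay wholly higher in the iron-deficient group, and Dnajc5, Hspbp1 and Hspb2 wholly lower. The share over all probe sets was not counted in these fits, and smaller groups separate more readily, so the rise has no baseline. Of the partner genes, 0 were up-regulated with limma, the rank sum, the dim filter, the mean over probe sets or the replicate block (0 to 1 with 1 array left out), and 0 down-regulated with limma, the rank sum, the dim filter or the replicate block (0 to 2 with 1 array left out). The mitochondrial median lay between -0.081 and -0.014 with 1 array left out. Of 38 named genes, 32 kept their sign under every setting. Dnajc22 was at -0.0014 with centred arrays. With 1 array left out, the log2 fold change of Dnajc22 ran from -0.039 to 0.034, Hsp90ab1 from -0.098 to 0.075, Hsp90b1 from -0.109 to 0.043, Hspa5 from -0.111 to 0.0196, Pdia2 from -0.085 to 0.022 and Pdia6 from -0.012 to 0.074. The causes were not tested. Differences of about 0.1 on the log2 scale are near the SE of most members and could not be called with 5 arrays per group, and 11 members are among the dimmest probe sets, where RMA signals carry little specific signal.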
